A study of Enallax costatus with 10 samples.

Results

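Among 32478 assembly genes of the desert green alga Enallax costatus, 7 kept a steady transcript level while drops of culture lost water, were at a small part of that level once the drops were dry, and were still there 1 h after water came back. They were chosen by their measured values in all 5 stages of the course: their Hydrated, Early and Late means lay within 1.9-fold of each other, the highest of the 4 Dry and Rehydrated values was at most 0.25 of the lowest of the 6 earlier values, and both Hydrated libraries held 60 or more counts. Their lower level in Dry and Rehydrated drops and their even level before that are therefore how they were found, and those values are given as a description. Where edgeR calls of these contrasts are printed, they stand beside the share over all genes and add no support.

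The material was strain CCAP 276-31, grown for 6 weeks in flasks of BBM+WH medium and left to dry in 40 µL drops, each on a round cover glass, with 2 RNA libraries per stage. The Hydrated stage was sampled at 0 h, the Early desiccation stage at 2.5 h with 25% of the volume gone, and the Late desiccation stage at 7.5 h with 60% gone. Dry drops were taken at about 24 h, after 11 h in the fully flattened state, and Rehydrated drops 1 h after rewetting. All stages shared the same strain and medium. Nothing in the labels ties the libraries within a stage to different cultures, so a p-value here speaks only for the variation among these samples, and that variation may be technical.

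Green algae that live in deserts dry out with their surroundings and restart their metabolism when water returns. The set of transcripts in a dry cell depends on synthesis before water ran out, on decay, and on which messages are held in storage, and after rewetting it depends on which of them are made again. A transcript that is low in the dry state and still low after rewetting is one whose pool, relative to the other transcripts, had not been refilled when the sample was taken. The deposited tables list assembly identifiers and do not pair them with gene names, so no function can be given for any of the 7 genes and no pathway list could be applied. The genes are numbered 1 to 7 by their mean over the 6 Hydrated, Early and Late libraries; gene 1 is TRINITY_DN212527_c5_g2 and gene 2 is TRINITY_DN201201_c0_g3.

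Total counts ran from 1974807 to 3867190 per library. The libraries were uneven in a way the stages do not explain. Hydrated replicate 2, Late replicate 2 and both Rehydrated libraries shared 147 assembly genes that reached 3 counts in all 4 of them and had none in the other 6, and the labels give no batch for this split. Both Dry libraries lay on the other side, so Rehydrated against Dry runs across the split and can be adjusted for it only through Hydrated and Late desiccation, which had a library on each side. Rehydrated replicate 2 held 319 genes with at least 100 counts, against 1343 in Rehydrated replicate 1 and 2043 to 4728 in the other libraries. In bulk libraries, fewer cells that carry a transcript and less of it per cell cannot be told apart.

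The selection narrowed in steps. Of 32478 assembly genes, 5467 had 60 or more counts in both Hydrated libraries, and 3012 of those were level from Hydrated to Late desiccation within 1.9-fold, called plateau genes below. The 0.25 limit was met by 79 plateau genes in both Dry libraries and by 123 in both Rehydrated libraries, and 7 met it in all 4. Both limits were set against the same 6 earlier libraries. At the edge of the 0.25 limit, gene 3 and gene 6 lay just inside with ratios of highest late value to lowest earlier value of 0.233 and 0.240, and the nearest genes outside had ratios of 0.266 and 0.267. The highest late and lowest earlier values behind these ratios were 4.22 and 18.1 for gene 3, 0.927 and 3.87 for gene 6, and 1.71 with 6.45 and 3.43 with 12.8 for the 2 genes outside. At the plateau limit the member with the widest spread of stage means, gene 5, was at 1.65-fold, and the next gene that met every other condition was at 1.95-fold. The number 7 depended on the scale and on single libraries: the same rule on CPM with TMM-scaled library sizes found 3 genes, all among the 7, and on total counts 85, all 7 among them. It found 15 genes without Hydrated replicate 1, 13 without Hydrated replicate 2, 19 without Late replicate 1, 24 without Dry replicate 1, 14 without Dry replicate 2, 25 without Rehydrated replicate 1 and 15 without Rehydrated replicate 2. The 19 without Late replicate 1 held 6 of the 7 genes, and without Late replicate 2 the rule found 6 genes, 5 of them among the 7.

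**Figure D1:**
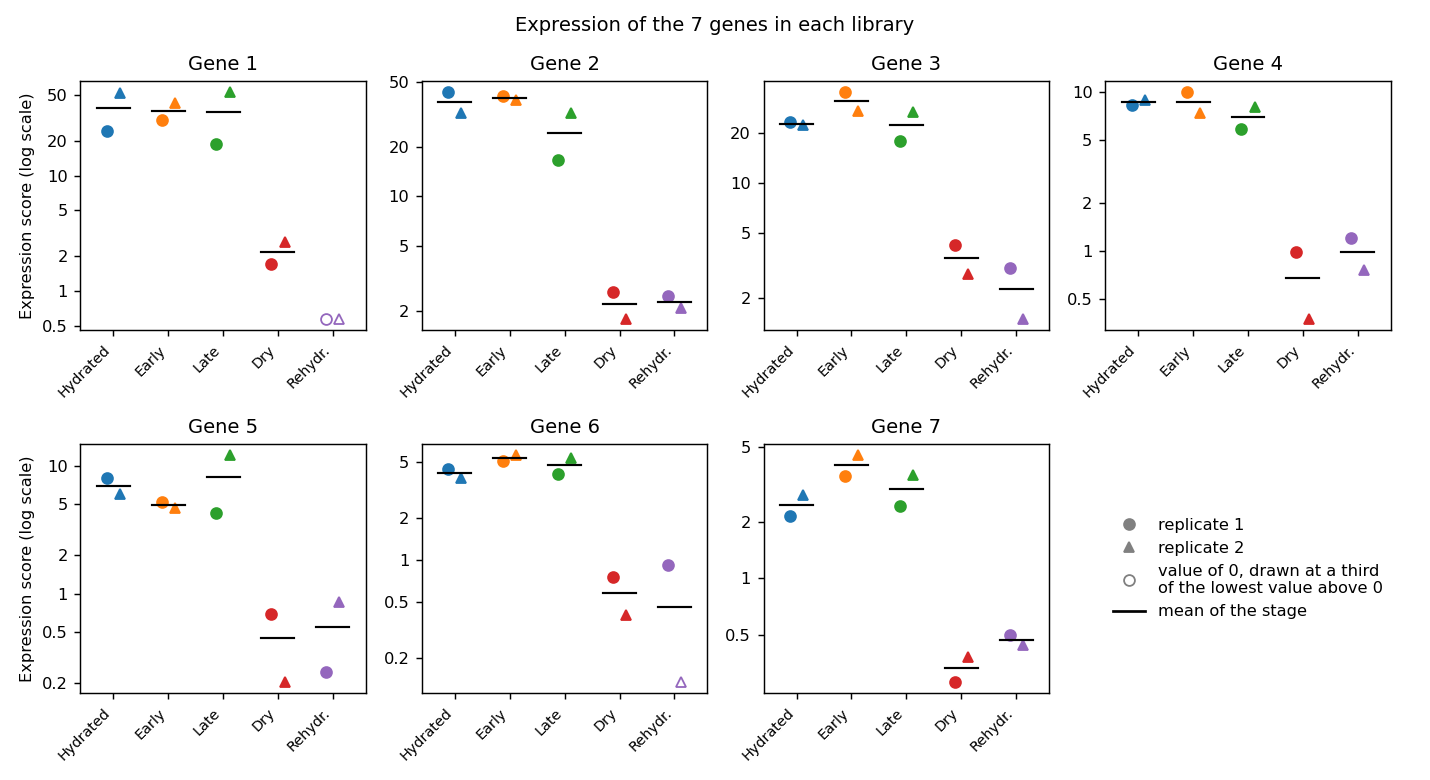
Expression score (log scale) of the 7 genes in all 10 libraries, by stage from Hydrated to Rehydrated, with circles for replicate 1, triangles for replicate 2, open symbols for a value of 0 and lines for stage means. Every gene has its 6 earlier values well above its 4 Dry and Rehydrated values, as the rule requires, and gene 1 is at 0 in both Rehydrated libraries.

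Values of the single genes are given on the expression score of the second deposited table, which is normalised for length and for a library factor. Gene 1 had scores of 24.7 and 52.7 in Hydrated, 30.3 and 42.6 in Early, 18.7 and 52.9 in Late, 1.71 and 2.66 in Dry and 0 and 0 in Rehydrated libraries (replicates 1 and 2). It was the most abundant of the 7, with stage means of 38.7, 36.5 and 35.8 in the first 3 stages that differed by only 1.08-fold, although its replicates differed by up to 2.83-fold. Behind the Dry scores stood 10 and 23 counts, and behind the Rehydrated scores none. Gene 2 had scores of 43.4 and 32.3 in Hydrated, 41.4 and 38.9 in Early, 16.7 and 32.3 in Late, 2.59 and 1.77 in Dry and 2.47 and 2.06 in Rehydrated libraries. Its Late mean of 24.5 ± 11.0 was below the Early mean of 40.2 ± 1.82 (SD, n = 2 each). The 2 Late libraries differed 1.94-fold, the second being level with Hydrated replicate 2 and the first well below all other earlier libraries. Its Dry and Rehydrated values overlapped.

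Gene 3 held the most reads of the 7 and had the longest transcript relative to the others. Its scores were 23.4 and 22.4 in Hydrated, 35.6 and 27.6 in Early, 18.1 and 27.2 in Late, 4.22 and 2.82 in Dry and 3.04 and 1.49 in Rehydrated libraries. With 1629 and 1374 counts in Hydrated and 109 and 51 in Dry libraries it was the best measured gene of the group. It also kept the largest share of its earlier level in Dry drops, 13.7% of the mean of the 6 earlier libraries. The Dry and Rehydrated values of gene 3 overlapped too, since Rehydrated replicate 1 was above Dry replicate 2.

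Genes 4 to 7 were less abundant, and their Dry and Rehydrated values rest on 0 to 10 counts per library. Gene 4 had scores of 8.29 and 8.85 in Hydrated, 9.88 and 7.36 in Early, 5.84 and 7.97 in Late, 0.985 and 0.373 in Dry and 1.21 and 0.757 in Rehydrated libraries. Gene 5 had 7.95 and 6.02 in Hydrated, 5.23 and 4.70 in Early, 4.26 and 12.1 in Late, 0.687 and 0.204 in Dry and 0.242 and 0.861 in Rehydrated libraries. It was the only one of the 7 with its highest stage mean in Late desiccation, and that mean came from 1 library. Gene 6 had 4.50 and 3.87 in Hydrated, 5.07 and 5.62 in Early, 4.11 and 5.40 in Late, 0.762 and 0.407 in Dry and 0.927 and 0 in Rehydrated libraries. Its 6 earlier values were the tightest of the 7, spanning 1.45-fold, whereas its Rehydrated libraries had 10 counts and none. Gene 7 was the least abundant, with 2.15 and 2.77 in Hydrated, 3.50 and 4.55 in Early, 2.43 and 3.56 in Late, 0.281 and 0.382 in Dry and 0.497 and 0.444 in Rehydrated libraries. Both Rehydrated values of gene 7 were above both of its Dry values, whereas for gene 1 both were below.

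While water was being lost, the 7 genes shared no common direction. Early desiccation had the highest stage mean for 5 of them, Hydrated for gene 1 and Late for gene 5. Late desiccation had the lowest for 4, Hydrated for 2 and Early for 1. Fitted log2 fold changes ran from -0.48 to 0.73 in Early and from -0.47 to 0.44 in Late desiccation against Hydrated, a range that the plateau condition limits. Late replicate 1 was below Late replicate 2 for all 7, against 51.6% of the 3012 plateau genes, and was the lowest of the 6 earlier libraries for 5 of the 7, against 31.3% of plateau genes. As the 0.25 limit is set by the lowest of those libraries, Late replicate 1 set it for 5 of the 7 genes.

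In Dry drops the 7 genes together gave 158 and 106 counts, against 3414 and 3205 in Hydrated drops. As a share of all counts this was 0.00634% and 0.00284% in Dry, against 0.0945% and 0.114% in Hydrated libraries. The summed score was 11.2 and 8.61 in Dry, against 114 and 129 in Hydrated libraries. Single genes were left at 5.90% (gene 1), 6.39% (gene 2), 13.7% (gene 3), 8.45% (gene 4), 6.64% (gene 5), 12.3% (gene 6) and 10.5% (gene 7) of their mean in the 6 earlier libraries. Plateau genes as a whole had a median of 80.8% and a lower quartile of 44.2%. Set against Hydrated alone, Dry libraries had 15.1-fold fewer scaled counts of gene 2 and 6.56-fold fewer of gene 3, while genes 6 and 7 were 6.36-fold and 6.07-fold lower. The median fitted log2 fold change of the 7 was -3.25, against -0.50 over all 16190 genes tested. All 7 passed the filter on low counts through their earlier libraries. All 7 were called lower by edgeR's quasi-likelihood test at an adjusted p under 0.05 (0.0027 to 0.0454), where 5.38% of all genes were called lower, but the rule used this contrast and the count adds nothing to it. It became 2 without Dry replicate 1, 0 without Dry replicate 2, 4 without Hydrated replicate 1 and 2 without Hydrated replicate 2. In those fits the genes called over the whole table, in either direction, were 583, 365, 476 and 472 in the same order, in place of 2117.

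An hour after rewetting, the 7 genes together gave 94 and 37 counts, against 3414 and 3205 in Hydrated drops, and a summed score of 8.38 and 5.61, against 114 and 129. Gene 1 was without counts in both Rehydrated libraries and was at least 94.4-fold lower than in Hydrated drops, taken against 3 counts over both libraries. Gene 2 was at 6.64% of its mean in the 6 earlier libraries, gene 3 at 8.80%, gene 4 at 12.2%, gene 5 at 8.22%, gene 6 at 9.74% and gene 7 at 14.9%. Plateau genes as a whole had a median of 52.4% in Rehydrated drops, with a lower quartile of 30.9%, so on the score their level was also below that of the earlier stages. It was below their 80.8% in Dry drops too. On scaled counts, the median fitted log2 fold change of Rehydrated against Dry was 0.20, but over all genes tested and not the plateau genes alone. Scale and gene set differ together here, so the other direction cannot be laid to the scale. Within each side of the library split, Dry drops had 6.22% to 13.4% of the mean of the 4 earlier libraries on their side and Rehydrated drops 0% to 14.9% of the mean of the 2 on theirs, shares that the rule held under 25% beforehand. The median fitted log2 fold change of the 7 against Hydrated was -2.64, against -0.09 over all genes tested, and it was also -2.64 with gene 1 set at its bound. In this contrast, which the rule used too, 4 of the 7 were called lower by edgeR, where 3.55% of all genes were; genes 5, 6 and 7 missed the threshold with adjusted p of 0.134, 0.0606 and 0.0628. The count was 1 without Hydrated replicate 1, where edgeR called 38 genes in the whole table in place of 937, and 7 without Rehydrated replicate 2, where it called 1633. When only these stages were fitted it was 0, and so was the count over the whole table.

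How much these low values can show depends on how many reads a library could have given. The expected counts below use TMM-scaled library sizes. Rehydrated replicate 2 held 2031430 counts, but its TMM-scaled size was 670695 (TMM factor 0.336). The TMM factors of the Hydrated libraries were 1.62 and 1.77, so on total counts every expected value below would be higher. At its mean Hydrated CPM, gene 1 would have given 206 and 87.4 counts in Rehydrated replicates 1 and 2, where none were seen. Gene 2 gave 20 and 10 counts where 216 and 91.8 would match the Hydrated level, and gene 3 gave 51 and 17 where 448 and 190 would. For genes 4 to 7 on this scale, Rehydrated replicate 2 would have held only 10.9 to 16.1 counts at the Hydrated level, and it had 2, 4, 0 and 4. For gene 5 the observed count in that library was 36.7% of the expected one, and in Rehydrated replicate 1 it was 3.89%. Gene 6 differed between the same libraries in the other direction, with 0% in Rehydrated replicate 2 and 26.4% in Rehydrated replicate 1. For the same 4 genes the Rehydrated level relative to Hydrated had wide 95% exact counting intervals, such as 0.133 to 0.496 for gene 7 around a ratio of 0.271. Such intervals, and the bounds of gene 1 at 3 counts, cover counting error only, as no molecular identifiers were used to count molecules.

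**Figure D2:**
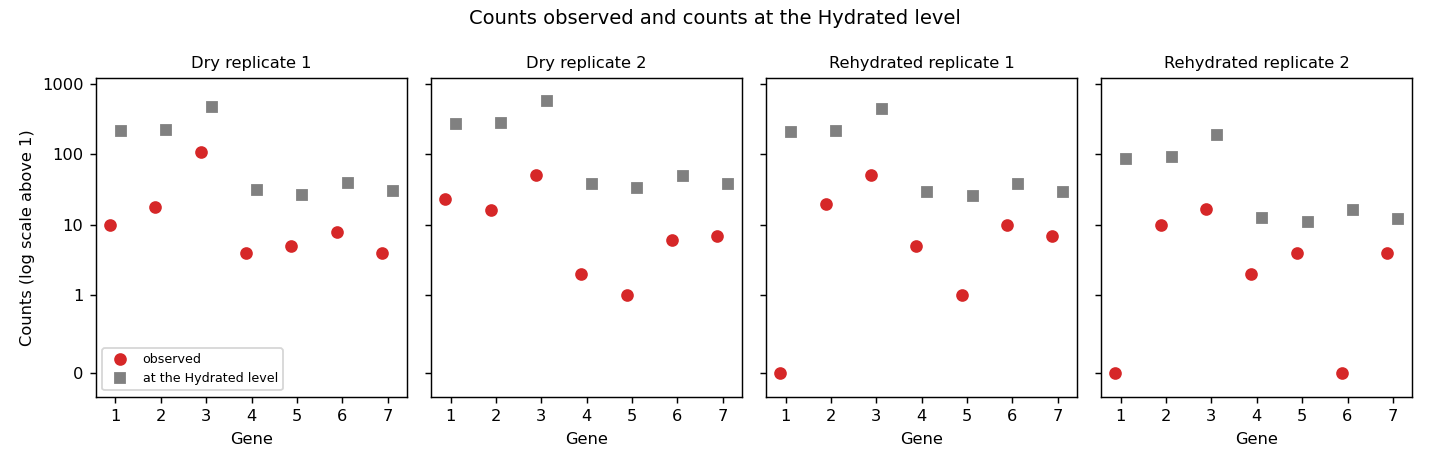
Counts of each of the 7 genes observed in the Dry and Rehydrated libraries (red circles) and the counts that the same library would hold at the gene's mean Hydrated CPM on TMM-scaled library sizes (grey squares), with counts on a log scale above 1. Every observed count lies below its square, and the squares of genes 4 to 7 in Rehydrated replicate 2 lie between 10.9 and 16.1 counts.

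Rehydrated against Dry was not free of the rule either, because the rule used these same values. Its cap left room for a Rehydrated score of only 1.29-fold (gene 3) to 2.39-fold (gene 5) the Dry mean, so a larger recovery was selected away, whereas no lower limit was set. The values of this contrast are therefore a description too, and nothing is read from the lack of a call for higher levels. Gene 1 had lower values in Rehydrated drops, and edgeR called no difference for the other 6 genes. The fall was not seen when gene 1 was summed with the other gene of its assembly component, described below (log2 fold change -0.07, edgeR adjusted p = 0.964). Gene 1 had 0 and 0 counts in Rehydrated, against 10 and 23 in Dry libraries, which is at least 6.69-fold lower against 3 counts over both Rehydrated libraries (edgeR fold change -7.90 on the log2 scale, SE 1.89, adjusted p = 0.0237). This 1 of 7 stands beside 11% of 16190 genes called lower. The call of gene 1 was lost in 4 edgeR fits in which its fold stayed large. The log2 fold change was -7.42 without Dry replicate 2 (adjusted p = 0.0933), -7.97 without Rehydrated replicate 1 (0.0702), -9.23 with the library split as a term (0.0638) and -6.92 under total-count scaling (0.0524). With the split as a term, edgeR called 4 genes in the whole table, in place of 2704. These folds rest on 0 Rehydrated counts and are no measure of size beyond the bound above.

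For the other 6 genes the counting interval of the ratio was wide, apart from gene 3. Scaled counts of Rehydrated over Dry were 1.45 for gene 2 (95% exact counting interval 0.858 to 2.44), from 20 and 10 counts in Rehydrated against 18 and 16 in Dry libraries. Gene 3 had a ratio of 0.699 with an interval of 0.518 to 0.934, from 51 and 17 counts against 109 and 51. Counting error alone would set gene 3 below 1, but the libraries of a stage differed by more than counting error and edgeR did not call it (log2 fold change -0.64, SE 0.57, adjusted p = 0.429). The ratio was 1.92 for gene 4 (0.552 to 6.91), 1.37 for gene 5 (0.331 to 5.39), 1.17 for gene 6 (0.467 to 2.84) and 1.64 for gene 7 (0.647 to 4.18). A rise of 2-fold lay within the interval of each of these except gene 3, so the data do not show that the level stayed the same. The adjusted p of genes 2 and 4 to 7 ran from 0.386 to 0.979 by edgeR, with fitted log2 fold changes of 0.55, 0.89, 0.61, 0.05 and 0.76. The scale matters at this size of difference: gene 6 had a mean score of 0.464 in Rehydrated and 0.585 in Dry drops, the other way from its scaled counts.

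**Figure D3:**
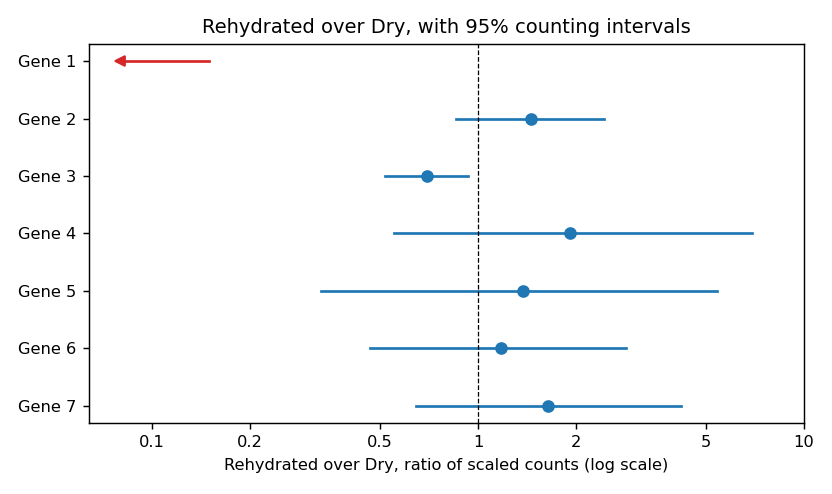
Ratio of scaled counts in Rehydrated over Dry drops for each gene (log scale), summed over 2 libraries per stage, with 95% exact counting intervals; the arrow marks gene 1, which had no Rehydrated counts, and starts at the ratio that 3 counts would give. The intervals of genes 2 and 4 to 7 include 1, that of gene 3 ends at 0.934, and the arrow of gene 1 starts at 0.149.

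Most plateau genes that met the Dry limit did not meet the Rehydrated limit. The 72 genes that met only the Dry limit had a median of 9.999% of the earlier level in Dry drops and 38.1% in Rehydrated drops, and 71 of them were higher in Rehydrated than in Dry drops by their mean scores. The 7 genes had a median of 8.45% in Dry and 8.80% in Rehydrated drops, and 4 of them were higher in Rehydrated drops. Over all 3012 plateau genes, 978 (32.5%) were higher in Rehydrated drops by the same measure. Another 116 plateau genes met only the Rehydrated limit, with a median of 49.7% in Dry and 7.22% in Rehydrated drops, and 1 of these was higher in Rehydrated drops. Membership of these sets was fixed by the same values, so their contrast is a description.

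**Figure D4:**
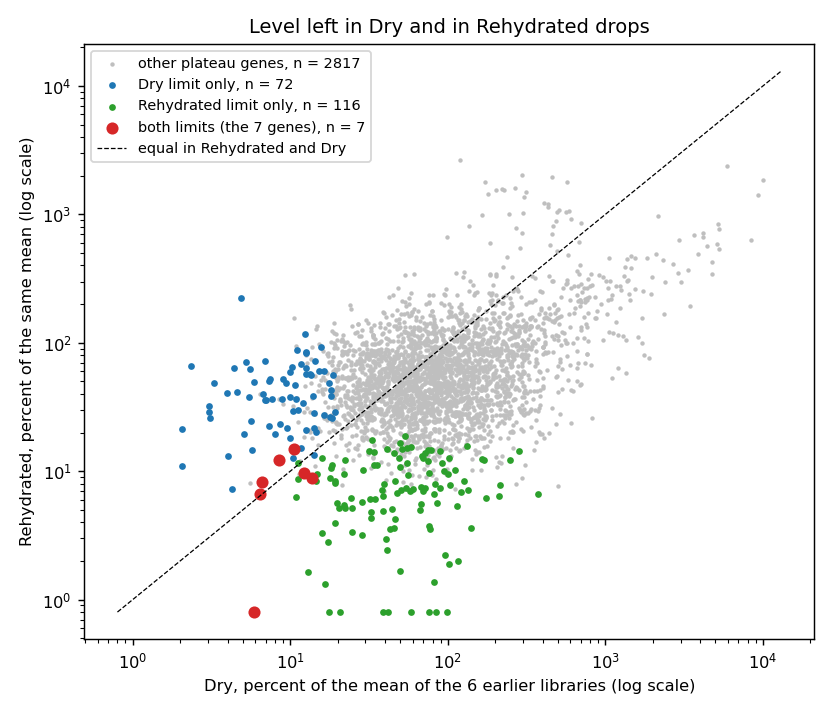
Level left in Dry (horizontal) and Rehydrated drops (vertical) as a percent of the mean of the 6 earlier libraries, both on log scales, for 3012 plateau genes coloured by the limits they met; values below 0.8 are drawn at 0.8. The 7 genes (red) lie at the lower left, 6 of them near the line of equal levels and gene 1 at the bottom edge.

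Length and level varied widely among the 7, although the floor of 60 counts in Hydrated libraries bears on both. Their relative effective length, taken as count over score and set to 1 at the median of the 5467 genes with 60 counts, was 0.769, 0.831, 2.82, 0.505, 0.538, 1.32 and 1.70 for genes 1 to 7. The median of 0.831 compares with 1.08 over the plateau genes, whose quartiles were 0.781 and 1.47. Gene 3 was longer than 97.7% of the 5467 genes and gene 4 shorter than all but 11.2%. In level the 7 ranged from the 13.1th percentile of plateau genes (gene 7) to the 96.1th (gene 1), with a median score of 8.03 against 5.90.

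The 7 genes came from 7 separate assembly clusters, so none is a near copy of another by the assembler's grouping. Their clusters held 32 further assembly genes in other components, of which 12 had 60 or more counts in both Hydrated libraries; 1 of these 12 met the 0.25 limit in Dry drops and 2 met it in Rehydrated drops. Only gene 1 had a partner in its own component. The partner had scores of 155 and 332 in Hydrated, 393 and 563 in Early, 112 and 465 in Late, 30.5 and 21.5 in Dry and 18.6 and 23.1 in Rehydrated libraries, several times more than gene 1 in each. It followed the same course but missed both limits narrowly, with stage means spanning 1.96-fold before drying and a highest late value at 0.271 of the lowest earlier one. The partner was called lower in Dry than in Hydrated drops (-3.01 on the log2 scale, SE 0.78, adjusted p = 0.0318 by edgeR) and just missed the threshold in Rehydrated against Hydrated (-2.93, SE 0.78, adjusted p = 0.0552). Its own Rehydrated counts of 90 and 74 did not differ from the Dry ones beyond the spread (0.08 on the log2 scale, SE 0.73, adjusted p = 0.956 by edgeR).

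Gene 1 and its partner may not be fully separate as measurements. In 8 of 10 libraries the expected count of gene 1 was not a whole number, as can happen where a read is divided among similar sequences. Added to the partner's count, it was whole within 0.01 in 6 of 10 libraries. Both Dry libraries were among these, with 10.38 and 22.64 for gene 1 and 148.62 and 137.36 for the partner. Both Rehydrated libraries were among them too, but there each of the counts was whole by itself, so their sums say nothing of shared reads. In Hydrated replicate 2, both Early libraries and Late replicate 2 the sum was not whole. How reads were divided between the pair was not tested further. Summed into 1 gene, the pair gave a log2 fold change of -0.07 in Rehydrated against Dry drops (edgeR adjusted p = 0.964), and no gene of the 7 was then called in that contrast. As a percent of the partner's score, gene 1 was at 15.9 and 15.9 in Hydrated, 7.73 and 7.58 in Early, 16.6 and 11.4 in Late, 5.60 and 12.3 in Dry and 0 and 0 in Rehydrated libraries. The lack of counts after rewetting holds for gene 1 alone and not for the pair.

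**Figure D5:**
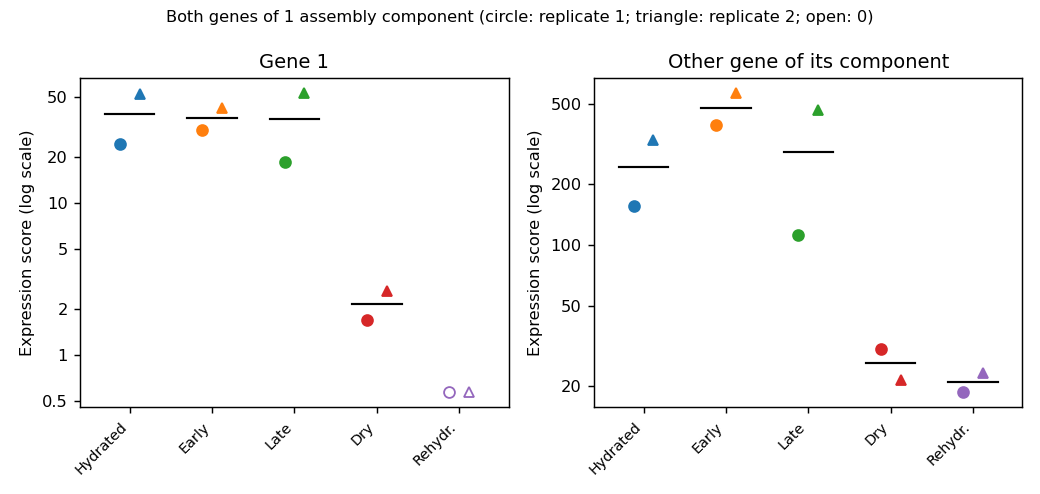
Expression score (log scale) of gene 1 and of the other gene of its assembly component in all 10 libraries, with circles for replicate 1, triangles for replicate 2, open symbols for 0 and lines for stage means. Both are lower in Dry than in the earlier stages, and in Rehydrated drops gene 1 is at 0 while the partner is at 18.6 and 23.1.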

How the data were processed

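Per the submitters' processing notes, CASAVA 1.4, Trimmomatic 0.35, Bowtie2 2.2, RSEM 1.2.28 and DESeq2 were used; their roles and the assembly are not given in the sources used here. Per the labels' protocols, rRNA was removed with a kit for Arabidopsis and 105 custom oligonucleotides. The first table deposited by the authors holds expected counts per assembly gene (11.4% not whole). The second deposited table holds a score, judged from its values and name to be length-normalised expression divided by a TMM factor per library; its columns sum to between 535618 and 2610432. Column names were matched to sample titles by replicate number and time code.

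Expected counts were rounded and fitted with edgeR 4.0.16 in R 4.3.3: filterByExpr (minimum count 10, minimum total 15), TMM scaling, 1 quasi-likelihood fit of all 10 libraries with stage as the factor and 5 residual degrees of freedom, glmQLFTest, and Benjamini-Hochberg adjustment over 16190 genes, with a gene called at an adjusted p under 0.05. The SE is the fold over the square root of F, so it follows from the test. Replicates of a stage differed beyond sampling noise (chi-square per degree of freedom 10.02 to 37.2), so none was merged in the fits. The Rehydrated pair differed most, at 37.2, and its log CPM correlated at 0.573, against 0.810 to 0.946 in the other stages. Counting intervals are exact binomial on counts summed over the libraries of a stage, with SciPy 1.17.1. Alternatives used DESeq2 1.42.0, other scalings and filters, and each library left out. The 7 genes and all lists and tests were chosen with earlier results of these data known. Identifiers were printed for the 2 most abundant of the 7, and the other genes were described by rank.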

Additional observations from a re-analysis of the deposited data

How the results depend on the processing

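The number of genes found was 4 with a plateau within 1.5-fold, 9 with a plateau within 2.5-fold, 26 with a limit of 0.333 in place of 0.25, 0 with a limit of 0.125, 16 with 30 or more counts, 3 with 120 or more, 3 on TMM CPM, 85 on total counts, and 6 to 25 with 1 library left out. The 6 found without Late replicate 2 held 5 of the 7 genes, and the 19 found without Late replicate 1 held 6. For the fits the 7 genes were held fixed. The number called lower in Rehydrated against Dry was 1, and 0 with a term for the split, under total-count scaling, with gene 1 and its partner summed (added after seeing the data) and in a fit of the compared stages alone, which tested only 2 of the 7 and gave no median; it was 0 to 1 with 1 library left out. The number called lower against Hydrated was 0 to 7 in Dry and 1 to 7 in Rehydrated with 1 library left out, and in Rehydrated 0 by the compared stages alone and 7 without a filter or under total counts. The median log2 fold change of the 7 was 0.55 in Rehydrated against Dry, 0.042 with the term for the split, and -0.37 to 0.48 with 1 library left out; in Dry against Hydrated it was -4.66 under total counts and -3.50 to -2.91 with 1 library left out; in Rehydrated against Hydrated it was -3.00 with the split, -3.19 without a filter, -4.39 under total counts and -3.41 to -2.76 with 1 library left out. The cause was not tested. In Rehydrated against Dry, uncalled folds changed sign for gene 6 with the split (-0.017) and without a filter (-0.30), and with 1 library left out gene 3 ran from -1.32 to 0.027, gene 5 from -1.44 to 2.12 and gene 6 from -6.79 to 0.62. Whether replicate numbers pair the libraries was not settled: deviations correlated at -0.05 to 0.36 between stages, with 3 of 10 pairs over 0.1. These 3 pairs were those among Hydrated, Late desiccation and Rehydrated. Hydrated and Late desiccation had a library on each side of the split, whereas both Rehydrated libraries lay on the same side. What lay behind these correlations was not tested. The replicate block left the calls at 1, 7 and 4 of the 7 in Rehydrated against Dry, Dry against Hydrated and Rehydrated against Hydrated. Over all genes tested the median log2 fold change was -0.50 under TMM, -0.44 under RLE, -0.71 under upper-quartile and -1.96 under total-count scaling in Dry against Hydrated, and -0.09, 0.08, 0.06 and -1.63 in Rehydrated against Hydrated, while all 7 genes were below 0 in both contrasts under each of these. Low counts limit genes 4 to 7 most.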

Other observations

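Outside the plateau condition, 9 more assembly genes had 60 or more counts in both Hydrated libraries and met the 0.25 limit in all 4 Dry and Rehydrated libraries. They were not level while water was lost: their Hydrated, Early and Late means spanned 1.95-fold to 60.4-fold. Early desiccation had the highest mean for 5 of them and Hydrated for 4, and Late desiccation for none of the 9. In Dry drops they were at 0% to 9.49% of their mean in the 6 earlier libraries, and in Rehydrated drops at 0% to 6.55%. The gene at 60.4-fold and at 0% in Dry drops was already near 0 before the Dry stage. It had scores of 5.68 and 3.87 in Hydrated, 0.158 and 0 in Early and 0 and 0.269 in Late libraries. As its lowest earlier value was 0, it met the limit only by a value of 0 in all 4 Dry and Rehydrated libraries. Only 1 of the 9 was lower at each step from Hydrated to Early to Late desiccation. These genes were found by the same values, so their low Dry and Rehydrated levels are a description with no test.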
